A study of Mus musculus with 6 samples.

Results

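The 10 genes described here are Egr1, Ier2, Ier3, Ier5, Btg2, Zfp36, Csrnp1, Maff, Gadd45b and Srf, a set of immediate early genes and the factor that drives many of them. They were chosen by name, with earlier results of these data known, and all 10 were found among the 10995 rows of the deposited count table. The RNA came from tumor cells of the mammary gland of MMTV-PyVT mice, in which a mouse mammary tumor virus promoter drives the polyoma middle T oncogene in mammary epithelium. All libraries came from the FVB/NJ strain and carry the oncogene. They comprise 3 libraries labelled Nr4a1-/- (KO below) and 3 labelled wild type (WT below). The series' design text says the animals were age matched, and the labels give no age, no treatment and no account of which part of Nr4a1 is disrupted. Whether each library was made from its own animal is not in the labels, and the p-values therefore rest on a spread that may be technical.

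Immediate early genes are transcribed soon after a growth factor, stress or adhesion signal, without the need for new protein synthesis. Signalling through ERK and through actin reaches many of them by way of serum response factor, the product of Srf, which binds the CArG box with ternary complex factors or with myocardin-related cofactors. Their products include transcription factors that pass the signal on, and proteins that end it by destroying mRNA or braking growth. Nr4a1, the gene named in the knockout label, is itself an immediate early gene that encodes an orphan nuclear receptor.

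Promoter sequence was available for 8 of the 10 genes, and none for Egr1 or Ier2, which were therefore not searched. The 8 genes had 13 windows of 250 bases upstream of a RefSeq transcript start (GRCm38.p6). Each was searched on both strands for the CArG box, for the cyclic AMP response element TGACGTCA, for the AP-1 site TGANTCA and for the EGR1 site GCGNGGGCG, the motif bound by the product of Egr1. The CArG box occurred in 1.47% of all 32851 such windows, TGACGTCA in 1.55%, TGANTCA in 6.75% and GCGNGGGCG in 4.70%. The 3 windows below are shown because they hold, beside the EGR1 motif, either the box of the group's own regulator or the cyclic AMP element. The Zfp36 window does so too and is not shown, since all of it lies within an annotated exon of Zfp36. Capitals mark the motif matches.
Srf (chr17:46556163-46556412, minus strand): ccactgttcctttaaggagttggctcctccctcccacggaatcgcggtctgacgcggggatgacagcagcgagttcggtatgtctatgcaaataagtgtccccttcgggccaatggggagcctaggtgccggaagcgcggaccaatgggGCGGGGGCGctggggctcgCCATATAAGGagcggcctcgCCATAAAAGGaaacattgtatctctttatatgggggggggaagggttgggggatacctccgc
Btg2 (chr1:134079156-134079405, minus strand): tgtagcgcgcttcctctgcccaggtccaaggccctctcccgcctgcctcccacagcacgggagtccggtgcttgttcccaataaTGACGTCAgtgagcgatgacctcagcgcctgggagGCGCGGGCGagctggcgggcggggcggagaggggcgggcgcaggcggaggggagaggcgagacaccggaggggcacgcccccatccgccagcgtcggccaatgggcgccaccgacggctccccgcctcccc
Maff, the window of 1 of its 3 starts (chr15:79347270-79347519, plus strand): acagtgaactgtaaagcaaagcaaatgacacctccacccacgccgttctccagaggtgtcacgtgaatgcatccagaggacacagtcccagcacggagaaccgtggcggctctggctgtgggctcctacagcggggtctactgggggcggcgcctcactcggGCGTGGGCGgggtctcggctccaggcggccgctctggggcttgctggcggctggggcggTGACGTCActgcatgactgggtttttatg

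The Srf window held 2 CArG boxes, CCATATAAGG and CCATAAAAGG, whose first bases lie 82 and 62 bases before the start. The Zfp36 window held the second of these, CCATAAAAGG, 58 bases before the start, together with GCGGGGGCG. The Gadd45b window held the EGR1 motif on the opposite strand, and 1 of 4 Csrnp1 windows held 2 copies of TGAGTCA. In that Csrnp1 window 128 bases lie in annotated exons of 1700019L13Rik, an antisense gene. All 250 bases of each other Csrnp1 window lie in annotated exons. None of the 4 motifs was found in the windows of Ier3 or Ier5. A match is a run of letters and not a measured binding site, and a missing match describes these letters and windows only.

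Total counts per library ranged from 19569173 to 24188875, and counts of the 10 genes in single libraries ranged from 392 to 9570. WT replicate 1 stood apart on the first principal component, which carried 60.1% of the variance. It lay at 51.3 on that axis, and the other 5 libraries lay between -28.8 and 2.22. Nr4a1 was not lower in the libraries labelled KO. It stood at 25.1, 35.5 and 37.6 CPM (read counts divided by the TMM-scaled size of each library) in the libraries labelled KO and at 34.5, 18.6 and 16.8 CPM in those labelled WT. Every direction below is therefore between libraries as labelled. Values follow replicate order 1, 2 and 3.

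None of the 10 immediate early genes passed the test between the labels. Zfp36 and Ier2 were the members whose 3 libraries labelled KO all lay below the 3 labelled WT, and for the other 8 the groups overlapped. Over all genes the test called 0%, and groups lay apart in the lower direction for 9.05%, which is 995 genes, and in the higher direction for 8.39%. Of the 10 genes, 2 lay apart in the lower and 0 in the higher direction. The test was edgeR's quasi-likelihood F test across the whole table with Benjamini-Hochberg adjustment at 0.05, and the smallest adjusted p among the 10 genes was 0.574. At an unadjusted p under 0.05, edgeR gave 2 of the 10 genes and 7.88% of all genes. DESeq2 called 0 of the 10 and 0.938% of all genes, and limma-voom called 0 of the 10 and 0% of all genes.

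Zfp36 encodes tristetraprolin, a zinc finger protein that binds AU-rich elements in mRNAs and brings them to the CCR4-NOT deadenylase. The gene (ENSMUSG00000044786.6) lies on chromosome 7, 28376784 to 28380253, minus strand, in GENCODE M21 of GRCm38. Zfp36 stood at 27.8, 30.98 and 33.6 CPM in the libraries labelled KO, against 41.0, 38.3 and 42.1 CPM in those labelled WT. All 3 values with the KO label were below all 3 with the WT label. The means were 30.8 ± 2.87 CPM with the KO label and 40.4 ± 1.97 CPM with the WT label (SD, n = 3 each). The log2 fold change, KO over WT, was -0.39 (SE 0.10, 95% interval of the single gene -0.63 to -0.16), and it did not pass when adjusted over all genes (edgeR adjusted p = 0.574). DESeq2 gave an adjusted p of 0.0858. With each library left out in turn the log2 fold change of Zfp36 lay between -0.46 and -0.33. Of the 31-base words of its longest transcript, 4.78% are also found in another gene's transcripts, and 3.6% of its exon bases overlap an antisense gene, Gm44710. No source used here states how strand was handled in counting, so a share of its reads is uncertain.

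Btg2 encodes an antiproliferative protein that, like tristetraprolin, recruits the CCR4-NOT deadenylase, and it is a known target of p53. Btg2 (ENSMUSG00000020423.6, chromosome 1, 134075170 to 134079120, minus strand) stood at 60.5, 72.2 and 53.7 CPM in the libraries labelled KO, against 55.9, 73.9 and 93.8 CPM in those labelled WT. The groups overlapped, and WT replicate 3 was the highest of the 6 libraries. Its log2 fold change was -0.26 (SE 0.21, 95% interval -0.78 to 0.25, edgeR adjusted p = 0.637), and it was -0.06 without WT replicate 3 and -0.43 without WT replicate 1.

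The test called 0% of all genes, and so no measured subunit of the enzyme that both proteins recruit. Of the 13 symbols listed for the CCR4-NOT complex and its poly(A)-binding partner, 12 were in the table, with 0 called higher and 0 called lower, 5 above 0 and 7 below 0. Their median log2 fold change was -0.0094, against -0.0024 over all genes. Cnot3, a subunit of the complex, stood at 58.6, 63.0 and 66.1 CPM in the libraries labelled KO and at 73.7, 69.2 and 67.5 CPM in those labelled WT, all 3 KO values being lower. Cnot10, another subunit, lay narrowly apart the other way, at 47.5, 45.87 and 45.97 CPM with the KO label and 45.85, 41.8 and 44.9 CPM with the WT label. Its log2 fold change was 0.07 (SE 0.07). Of the 12 genes, 1 lay apart in the lower and 1 in the higher direction, against 9.05% and 8.39% of all genes.

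Among 10 measured mRNAs that tristetraprolin is known to bind, 0 were called by edgeR in either direction, 4 lay above 0 and 6 below 0, and their median log2 fold change was -0.20. Il6, an inflammatory cytokine, stood at 23.6, 35.4 and 17.2 CPM in the libraries labelled KO, against 3.30, 10.4 and 5.74 CPM in those labelled WT. Its log2 fold change of 1.97 (SE 0.48, edgeR adjusted p = 0.574) was called by DESeq2. Lif, a cytokine of the same family, ran the other way, at 200, 198 and 127 CPM with the KO label and 338, 209 and 319 CPM with the WT label. The interleukin subunit gene Il23a and the angiogenic factor Vegfa gave log2 fold changes of -0.96 (SE 0.36) and 0.27 (SE 0.14), with overlapping groups.

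**Figure D1:**
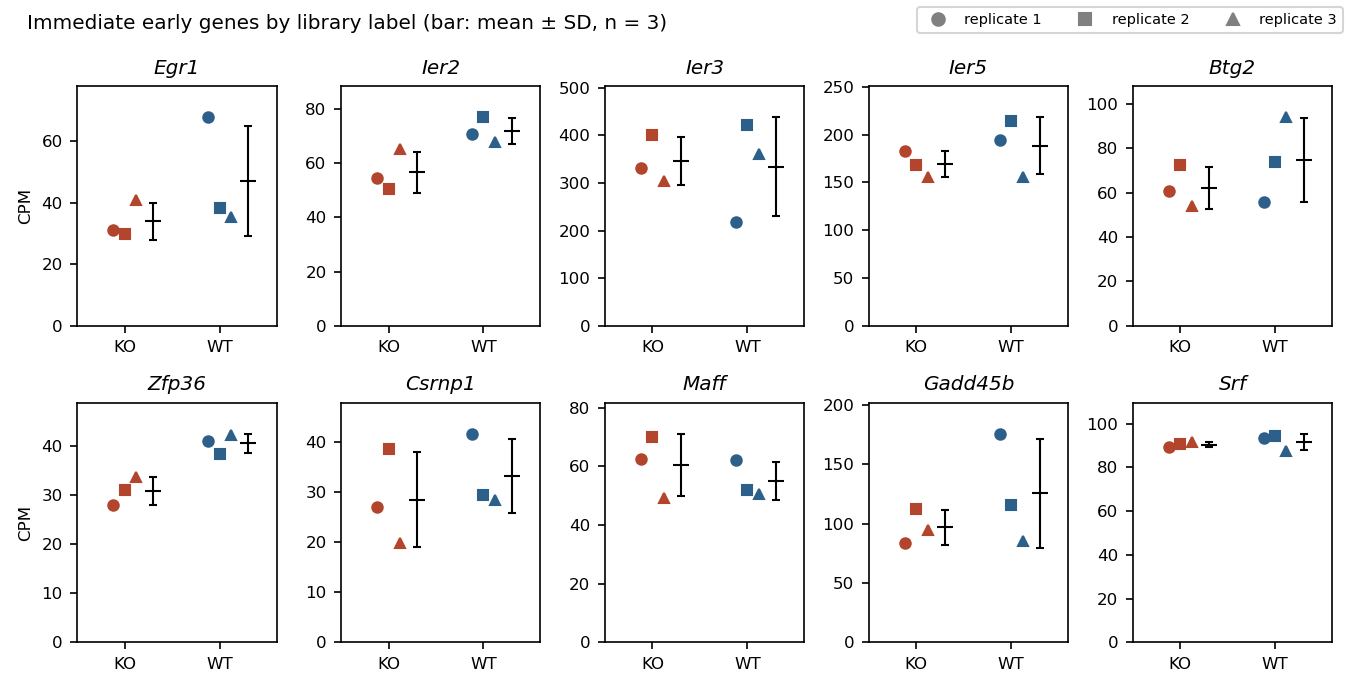
Level in CPM of each of the 10 genes in every library, with the 3 libraries labelled KO on the left of each panel and the 3 labelled WT on the right. Each marker is 1 library, its shape gives the replicate number, and the bar gives the mean ± SD (n = 3); the groups lie apart for Zfp36 and Ier2, and WT replicate 1 lies far above the other libraries for Egr1 and Gadd45b.

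Egr1 encodes the zinc finger transcription factor that binds the GC-rich motif marked above. Egr1 (ENSMUSG00000038418.7, chromosome 18, 34859823 to 34864984, plus strand) stood at 31.1, 29.8 and 40.7 CPM in the libraries labelled KO, against 67.7, 38.2 and 35.3 CPM in those labelled WT. The groups overlapped, since KO replicate 3 lay above WT replicates 2 and 3, and WT replicate 1 was the highest. The means were 33.9 ± 5.96 CPM with the KO label and 47.0 ± 17.9 CPM with the WT label (SD, n = 3 each). The log2 fold change was -0.47 (SE 0.28, 95% interval -1.17 to 0.22, edgeR adjusted p = 0.584), and -0.12 without WT replicate 1. Its corepressors Nab1 and Nab2, of which Nab2 is induced by EGR1, gave log2 fold changes of -0.16 (SE 0.16) and -0.16 (SE 0.22), with overlapping groups. Its relative Egr2, an early growth response factor, stood at 10.3, 24.7 and 10.3 CPM in the libraries labelled KO and at 6.30, 13.1 and 5.84 CPM in those labelled WT.

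Ier2 and Ier5 belong to 1 protein family, and Ier3 has only the name for immediate early response in common with them. Ier2 encodes a small nuclear protein linked to transcription and cell motility. Ier2 (ENSMUSG00000053560.4, chromosome 8, 84661331 to 84662852, minus strand) stood at 54.6, 50.4 and 65.2 CPM in the libraries labelled KO, against 70.9, 77.0 and 67.7 CPM in those labelled WT. All 3 values with the KO label were below those with the WT label, the nearest pair being KO replicate 3 and WT replicate 3. The means were 56.7 ± 7.58 CPM with the KO label and 71.9 ± 4.70 CPM with the WT label (SD, n = 3 each). The log2 fold change was -0.34 (SE 0.11, 95% interval of the single gene -0.62 to -0.07), which did not pass (edgeR adjusted p = 0.574). With each library left out in turn the log2 fold change of Ier2 lay between -0.45 and -0.26.

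Ier3 encodes a stress-inducible regulator of apoptosis that is a target of NF-kB. Ier3 (ENSMUSG00000003541.6, chromosome 17, 35821684 to 35822923, plus strand) stood at 331, 401 and 303 CPM in the libraries labelled KO, against 219, 421 and 361 CPM in those labelled WT. The 2 extremes, WT replicates 1 and 2, carried the same label. Its log2 fold change was 0.05 (SE 0.25, 95% interval -0.58 to 0.67, edgeR adjusted p = 0.947), and the sign turned, to -0.18 without WT replicate 1 and to -0.07 without KO replicate 2. Ier5 encodes a protein that promotes the activity of heat shock factor 1. Ier5 (ENSMUSG00000056708.5, chromosome 1, 155096361 to 155099636, minus strand) stood at 183, 168 and 156 CPM in the libraries labelled KO, against 195, 214 and 156 CPM in those labelled WT. The groups overlapped, and its log2 fold change was -0.16 (SE 0.13, 95% interval -0.48 to 0.17, edgeR adjusted p = 0.653), and it was -0.05 without WT replicate 2 and -0.27 without WT replicate 3.

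All 14 listed heat shock genes were in the table, with 0 called, 7 above 0 and 7 below 0, and their log2 fold changes had a median of 0.0047. Hsf1, which encodes heat shock factor 1, stood at 44.5, 48.9 and 48.1 CPM in the libraries labelled KO and at 54.1, 53.3 and 53.4 CPM in those labelled WT, without overlap. The mitochondrial chaperonin gene Hspe1 and the small heat shock gene Hspb1 gave log2 fold changes of 0.21 (SE 0.09) and -0.27 (SE 0.12). Hsph1, a large cytosolic chaperone, stood at 255, 223 and 315 CPM with the KO label and at 793, 303 and 294 CPM with the WT label, so that WT replicate 1 was again the highest.

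Gadd45b encodes a stress sensor that binds MAP kinase kinases and takes part in DNA demethylation and survival signalling. Gadd45b (ENSMUSG00000015312.9, chromosome 10, 80930073 to 80932204, plus strand) stood at 83.3, 112 and 94.98 CPM in the libraries labelled KO, against 176, 116 and 85.3 CPM in those labelled WT. WT replicate 1 was the highest, and WT replicate 3 lay below KO replicates 2 and 3. Its log2 fold change was -0.37 (SE 0.27, 95% interval -1.05 to 0.30, edgeR adjusted p = 0.614), and it was -0.05 without WT replicate 1 and -0.58 without WT replicate 3. Its relative Gadd45a, a p53 target, stood at 57.1, 56.2 and 44.0 CPM with the KO label and at 25.5, 52.0 and 39.4 CPM with the WT label.

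Csrnp1 encodes a nuclear protein induced by AXIN1. Csrnp1 (ENSMUSG00000032515.8, chromosome 9, 119971163 to 119984658, minus strand) stood at 27.0, 38.6 and 19.8 CPM in the libraries labelled KO, against 41.6, 29.5 and 28.3 CPM in those labelled WT. The groups overlapped, and the log2 fold change was -0.22 (SE 0.28, 95% interval -0.90 to 0.47, edgeR adjusted p = 0.751). It was -0.01 without KO replicate 3 and -0.50 without KO replicate 2. An antisense gene, 1700019L13Rik, overlaps 6.45% of its exon bases. Maff encodes a small MAF factor, which has no activation domain of its own and pairs with NRF or BACH proteins. Maff (ENSMUSG00000042622.14, chromosome 15, 79346621 to 79359076, plus strand) stood at 62.6, 69.9 and 49.1 CPM in the libraries labelled KO, against 62.3, 51.9 and 50.5 CPM in those labelled WT. The groups overlapped, with the highest and the lowest library both labelled KO, and the log2 fold change was 0.14 (SE 0.15, 95% interval -0.24 to 0.52, edgeR adjusted p = 0.714). For Maff it was 0.02 without KO replicate 2 and 0.27 without KO replicate 3.

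The other small MAF genes had their highest library in WT replicate 1. Mafg stood at 173, 191 and 186 CPM in the libraries labelled KO, against 531, 202 and 245 CPM in those labelled WT, without overlap. Mafk stood at 85.5, 73.5 and 74.8 CPM with the KO label and 130, 83.5 and 87.6 CPM with the WT label. Of the 5 measured partners of MAFF, 0 were called, 2 lay above 0 and 3 below 0, and Nfe2l3, an NRF factor, had the smallest unadjusted p (log2 fold change -0.53, SE 0.20, edgeR adjusted p = 0.574). Over all 15 measured relatives of the 10 genes, 0 were called, 9 lay above 0 and 6 below 0, and the median log2 fold change was 0.11. The transcription factor Maf and Csrnp2, a relative of Csrnp1, gave log2 fold changes of 0.85 (SE 0.38) and 0.20 (SE 0.10), and for Csrnp2 all 3 libraries labelled KO lay above the 3 labelled WT.

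Srf was the steadiest of the 10 genes. Srf (ENSMUSG00000015605.6, chromosome 17, 46548329 to 46556175, minus strand) stood at 89.3, 90.5 and 91.4 CPM in the libraries labelled KO, against 93.3, 94.2 and 87.4 CPM in those labelled WT. Over the 6 libraries its coefficient of variation was 2.77%, against a median of 18.8% for the 10 genes and of 11.1% for all genes. The log2 fold change of Srf was -0.02, with SE 0.06 and a 95% interval from -0.17 to 0.13, the narrowest among the 10 (edgeR adjusted p = 0.906).

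The measured cofactors of SRF were not called either, as the test called 0% of all genes. Of the 5 in the table, 0 were called, and the myocardin-related genes Mkl1 and Mkl2 gave log2 fold changes of 0.02 (SE 0.07) and -0.18 (SE 0.17). The ternary complex factors Elk1 and Elk4 had -0.10 (SE 0.13) and -0.03 (SE 0.09). Of 24 measured cytoskeletal targets of SRF and its actin-regulated cofactors, 0 were called, 20 lay above 0 and 4 below 0, with a median log2 fold change of 0.13. Actg1, cytoplasmic gamma actin, stood at 2476, 2467 and 2374 CPM in the libraries labelled KO, against 3977, 2842 and 2929 CPM in those labelled WT, and Tagln2 had -0.25 (SE 0.10), both without overlap. Of the 24 targets, these 2 lay apart in the lower and 0 in the higher direction, against 9.05% and 8.39% of all genes. The integrin subunit Itga5 and the LIM protein gene Fhl2 had 0.77 (SE 0.45) and 0.35 (SE 0.22), with overlapping groups. Several genes of this list are also markers of smooth muscle, whose level is given below.

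**Figure D2:**
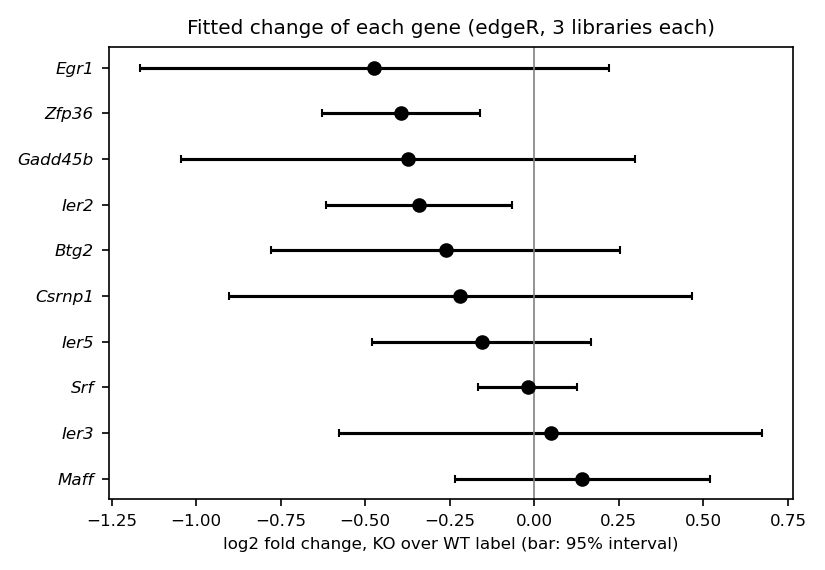
Fitted log2 fold change of each gene, KO over WT label (horizontal axis), as points with 95% intervals from edgeR on 3 libraries each; intervals are for single genes, without adjustment. The intervals of Zfp36 (-0.63 to -0.16) and Ier2 (-0.62 to -0.07) lie below 0, the others span 0, and none of the 10 passed after adjustment.

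Across the 10 genes, 8 log2 fold changes lay below 0 and 2 above 0, against 50.6% of all genes below 0. With scaling by total counts alone 7 lay below 0, Srf turning to 0.0046, and without WT replicate 2 also 7, Srf turning to 0.00028. Without KO replicate 2 and without WT replicate 1 the count was 9, Ier3 turning below 0. The median of the 10 was -0.24, against -0.0024 over all genes, and it was -0.12 without WT replicate 1 and -0.13 without KO replicate 3. Of the 38 other immediate early genes in the table, 19 lay above 0 and 19 below 0, the median log2 fold change was 0.0016, 0 were called, and 7 had an unadjusted p under 0.05.

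Those with the smallest p ran in both directions. Tiparp, a gene induced by the aryl hydrocarbon receptor, stood at 16.4, 17.9 and 14.9 CPM in the libraries labelled KO, against 12.8, 11.7 and 11.6 CPM in those labelled WT. The NF-kB inhibitors Tnfaip3 and Nfkbia gave log2 fold changes of -0.46 (SE 0.14) and -0.68 (SE 0.23), the first without overlap. Atf3, a stress-induced transcription factor, stood at 6.86, 7.21 and 6.41 CPM with the KO label and at 26.3, 9.77 and 9.84 CPM with the WT label. For Tiparp, Tnfaip3, Nfkbia and Atf3 the edgeR adjusted p was 0.574 in each case.

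**Figure D3:**
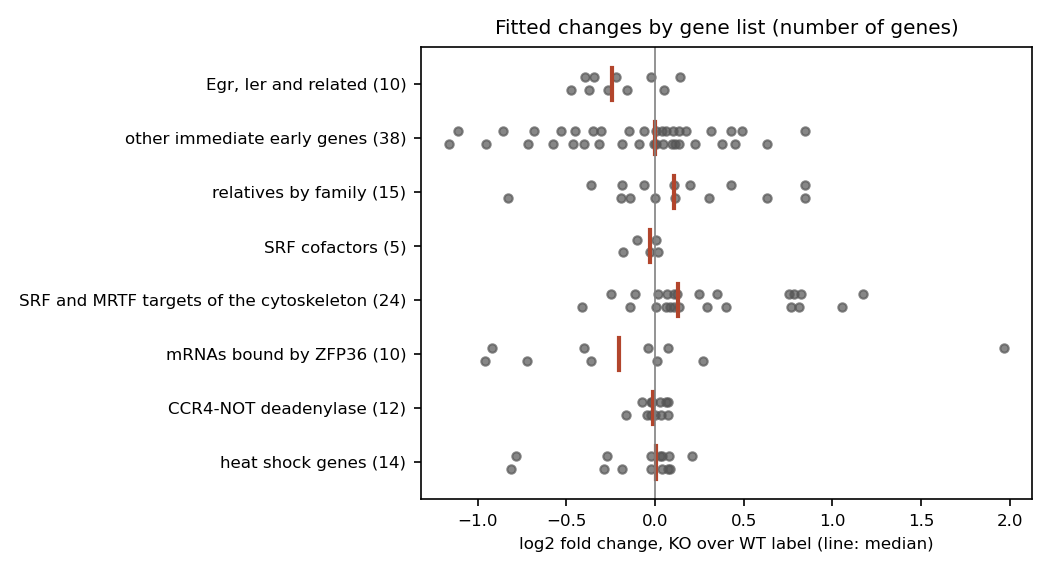
Fitted log2 fold change, KO over WT label (horizontal axis), of each measured gene in the lists (rows), 1 point per gene, with a vertical line at the list's median. The 10 genes have a median of -0.24 and the 38 other immediate early genes one of 0.0016; genes can stand in more than 1 list.

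The 10 genes did not move as a block from library to library. WT replicate 1 was the highest library for Egr1, Csrnp1 and Gadd45b and the lowest for Ier3. It was the highest for 32.2% and the lowest for 31.6% of all genes. WT replicate 2 was the highest for Ier2, Ier3, Ier5 and Srf, and WT replicate 3 for Btg2 and Zfp36. KO replicate 2 was the highest for Maff, and KO replicates 1 and 3 for 0 of the 10. Of the 45 pairs of genes, 28 had a positive and 17 a negative Pearson correlation of log2 CPM over the 6 libraries, with a median r of 0.20. Egr1 and Gadd45b had r = 0.81, as had Ier2 and Zfp36, while Egr1 and Ier3 had r = -0.85. These are descriptions over 6 libraries that share 1 scaling, and those with Egr1 lean on WT replicate 1.

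The genes outside the set whose level was most like the mean of the 10, each centred on its own mean, were Tnfrsf12a (r = 0.98), Purg (0.97), Ltv1 (0.97), Gm13841 (0.97) and Pdcd2l (0.97) over the 6 libraries. Tnfrsf12a, the receptor of the cytokine TWEAK, stood at 251, 286 and 247 CPM in the libraries labelled KO and at 355, 304 and 284 CPM in those labelled WT. Among those most like Egr1 were Vsig10 (r = 0.998) and Fam234b (r = 0.996), both highest in WT replicate 1. All of these genes were picked for the highest r among the other rows, over only 6 libraries. Values near 1 follow from that choice, and shared regulation was not tested.

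**Figure D4:**
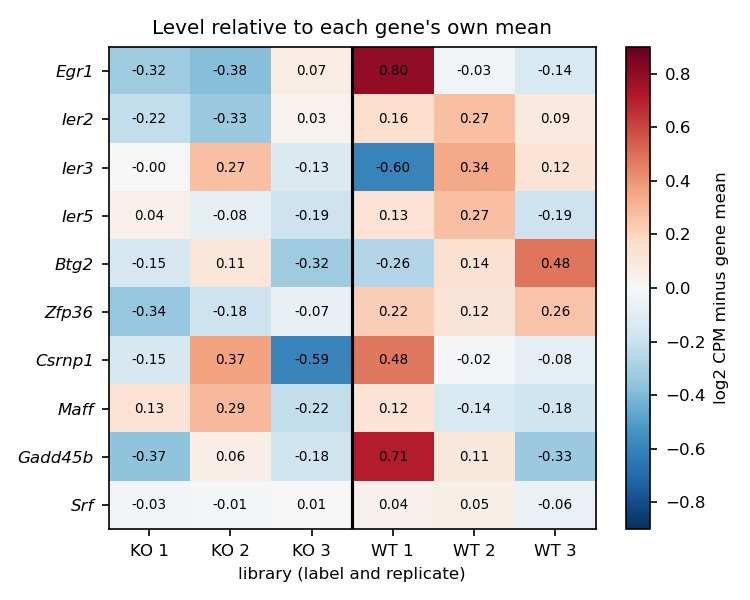
Log2 CPM of each gene (rows) in each library (columns, KO left of the line and WT right of it) minus the gene's own mean over the 6 libraries; red is above and blue below the mean. WT replicate 1 reads 0.80 for Egr1 and 0.71 for Gadd45b but -0.60 for Ier3, and Srf stays within 0.06 of its mean.

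Markers of other cells differed between these libraries. In bulk RNA, fewer cells of a type and less RNA per cell cannot be told apart. The summed level of the 8 measured of 10 pericyte and smooth muscle markers was 886 to 2026 CPM in the libraries labelled KO and 259 to 1086 CPM in those labelled WT. Acta2, the largest term of that sum, is also listed as a basal mammary marker. It stood at 800, 1399 and 542 CPM with the KO label and 154, 785 and 612 CPM with the WT label, with overlap. Of the 8 markers, 5 had all libraries labelled KO above those labelled WT, against 8.39% of all genes. Fibroblast markers (9 of 13 measured) summed to 4907 to 8957 CPM with the KO label and 2276 to 5539 CPM with the WT label, and macrophage markers (13 of 15) to 1197 to 1365 CPM and 832 to 987 CPM in the same order. Lyz2 and Cd14 were the largest terms of the macrophage sum. Of its 13 markers, 12 had a log2 fold change above 0, and Cd14 ran the other way (-0.50, SE 0.46). WT replicate 1, where Egr1 and Gadd45b were highest and Ier3 was lowest, had the lowest sum in all 3 lists. The basal mammary markers also had their lowest sum there (1133 CPM, against 2077 to 2899 CPM in the other libraries), and their groups overlapped. So had the measured neutrophil (3 of 8) and endothelial (2 of 12) markers, at 46.4 and 14.4 CPM, again with overlapping groups. Of 7 adipocyte markers only Fabp4 was measured. It stood at 47.0, 78.1 and 26.6 CPM with the KO label and at 2.71, 4.27 and 2.45 CPM with the WT label. The luminal epithelial markers of the labelled tissue (10 of 12 measured, with Esr1 and Foxa1 outside the table) summed to 3172 to 4182 CPM with the KO label and 4680 to 5175 CPM with the WT label, without overlap. Of the 10 measured luminal markers, 9 had a log2 fold change below 0, and Gata3 stood at 0.0078. All libraries labelled KO lay below those labelled WT for 3 of the 10, against 9.05% of all genes. None of the 8 T cell or 5 B cell markers was among the rows. Zfp36 and Ier2, whose groups lay apart, ran in the direction of the luminal sum, as did all 995 genes that lay apart in the lower direction. The part of cell makeup in these values was not tested.

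Per length of annotated exon, Ier3 was the most abundant of the 10 and Egr1 and Csrnp1 the least. Ier3 averaged 305 ± 44.7 CPM per kilobase with the KO label and 295 ± 91.8 with the WT label (SD, n = 3 each), and its lowest library lay above the highest of any other of the 10. Gadd45b followed with 60.9 ± 9.12 CPM per kilobase with the KO label and 78.9 ± 28.9 with the WT label, then Ier5 with 51.6 ± 4.12 and 57.5 ± 9.08, and Ier2 with 37.3 ± 4.98 and 47.2 ± 3.09, in the same order of labels. The ranges of Gadd45b and Ier5 overlapped, as did those of Ier5 and Ier2. Srf averaged 31.3 ± 0.378 CPM per kilobase with the KO label and 31.7 ± 1.27 with the WT label, and its highest library lay below the lowest of Ier2. Btg2 averaged 22.7 ± 3.41 and 27.2 ± 6.91, and Maff 23.3 ± 4.07 and 21.2 ± 2.49, so that this pair changed order between the labels within their spread, and the range of Btg2 also overlapped that of Srf. The lowest library of Maff lay above the highest of Zfp36. Zfp36 averaged 8.87 ± 0.826 and 11.7 ± 0.568, Egr1 7.56 ± 1.33 and 10.5 ± 3.99, and Csrnp1 8.19 ± 2.73 and 9.55 ± 2.12, again in that order of labels, with overlapping ranges among these 3. Lengths are the union of all annotated exons, so a gene with rarely used exons reads low on this scale. For Zfp36 that union is its whole annotated span of 3470 bases, so its place in this order depends on the annotation.

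**Figure D5:**
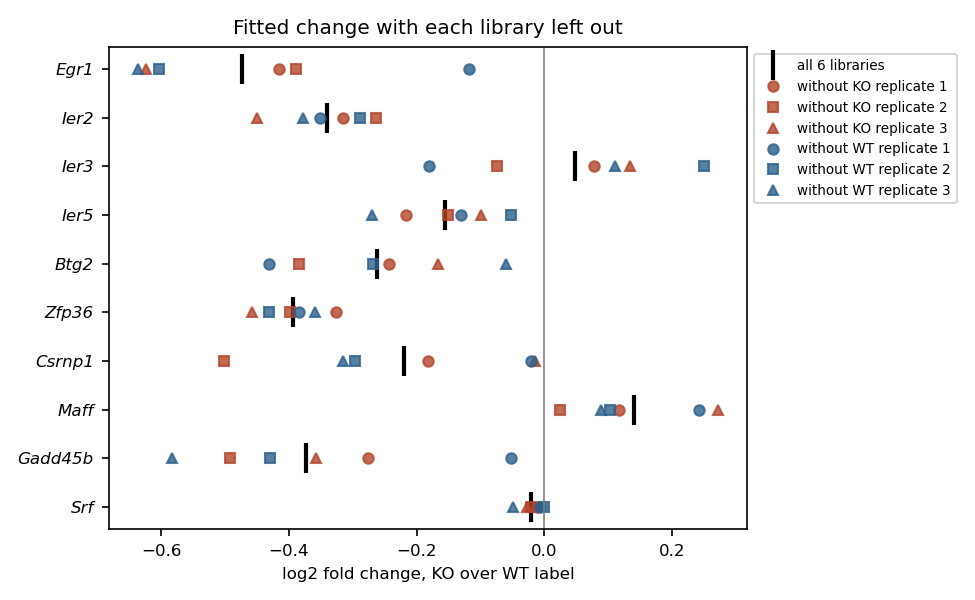
Fitted log2 fold change, KO over WT label (horizontal axis), of each gene with all 6 libraries (black bar) and with each library left out (coloured markers, colour giving the label and shape the replicate left out). Without WT replicate 1 Egr1 reads -0.12 and Gadd45b -0.05, whereas Zfp36 stays between -0.46 and -0.33.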

How the data were processed

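The values are read counts, which the authors deposited unnormalized as 1 table with a row per gene symbol and a column for each of 6 libraries. Per the submitters' processing notes, CASAVA 1.8, HISAT2 and featureCounts were used with the mouse build GRCm38 (mm10). How strand and multiply aligned reads were handled, and which annotation was used, is not stated in the sources used. Per the labels' protocols, NEBNext libraries were read as 150-base pairs. Each listed gene has a highest count of at least 133, so low genes had been left out of it.

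Counts were tested with edgeR 4.0.16 in R 4.3.3 (filterByExpr, which removed no row of 10995, TMM scaling, robust quasi-likelihood fit, group as the only term, Benjamini-Hochberg adjustment at 0.05). The method was tested on simulated data whose planted changes were larger than any fitted for the genes of the set, so it does not cover changes of their size. DESeq2 1.42.0 and limma-voom (limma 3.58.1) were alternatives, with other scalings, no filter, a replicate block and each library left out. Log2 CPM for correlations used a prior count of 2. Intervals are 95% t intervals of the edgeR fit. Symbols were placed on GENCODE M21 (GRCm38), where 10917 matched 1 gene. Promoters are from RefSeq (GRCm38.p6). Figures were drawn with matplotlib 3.10.9 in Python 3.11.15.

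The genes and lists were chosen with earlier results of these data known. All 10 genes were named, with Nr4a1, up to 4 genes of the smallest unadjusted p in each list, and the nearest genes by correlation, of which 1 near Egr1 is not reported here; Egr2 and Gadd45a were named after their values were seen.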

Additional observations from a re-analysis of the deposited data

How the results depend on the processing

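The number of the 10 genes called was 0 under every alternative run, with the smallest adjusted p at 0.0858 in DESeq2 and between 0.390 and 0.889 in edgeR with a library left out. Over the whole table edgeR called 0 genes and DESeq2 103, 64 higher and 39 lower; with each library left out edgeR called between 0 and 2, the 2 without WT replicate 2. The median log2 fold change of the 10 genes lay between -0.32 (without KO replicate 2) and -0.12 (without WT replicate 1). Of 132 single-gene values under alternatives, for the 10 genes and Nr4a1, 128 kept their sign and 4 turned, none of them called. Srf turned to 0.0046 with total counts alone and to 0.00028 without WT replicate 2. Ier3 turned to -0.07 without KO replicate 2 and to -0.18 without WT replicate 1. The run with no filter could not differ from the main fit, since the filter had removed no row, and its values are among the 128. With each library left out Srf ranged from -0.049 to 0.00028 and Ier3 from -0.18 to 0.25. Deviations of same-numbered libraries correlated at -0.11, 0.35 and -0.25 across genes, and those of differently numbered libraries at -0.33 to 0.35. With 3 libraries a group these values cannot decide whether the replicate numbers mark pairs. With the replicate number as a block, edgeR called 0 genes and 0 of the 10, with a median of -0.25. With 3 libraries a group, the 95% intervals of 7 of the 10 genes, all but Ier5, Maff and Srf, reach below -0.5 on the log2 scale, and those of Ier3 and Maff reach above 0.5.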
